A study of Mus musculus with 11 samples.

Results

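Transcripts of myeloid cells and mast cells were followed in sorted mouse thymocytes that lacked CD24 and TCRβ on their surface. The 8 genes were taken as a fixed list of symbols, out of 53402 gene identifiers present in both deposited count tables: Lyz2, S100a8, Csf1r, Fcgr3, Cd14, Cebpb, Cpa3 and Tpsb2. RNA from these cells was turned into 11 sequencing libraries with a modified RamDA-seq protocol, in which total RNA is copied from NSR primers as well as oligo(dT). At postnatal day 0 there were 2 libraries each of the genotypes Bcl11b +/+, Bcl11b +/N440K and Bcl11b D/N440K, where N440K is an altered residue of the transcription factor Bcl11b and the labels leave the allele D undefined. At postnatal day 7 the genotypes were Tcf7 +/+, with 2 libraries, and Tcf7 F/F : Vav1-Cre, with 3, in which a floxed Tcf7 gene is combined with a Cre recombinase under the Vav1 promoter. Vav1-Cre acts in blood cells in general, so myeloid and mast cells of these mice would carry the recombined allele as well as thymocytes. The labels do not say whether the Tcf7 +/+ mice carried Cre, whether animals were pooled, or whether replicates came from separate animals, so each p-value measures the spread between these libraries, which may be technical. The sort as labelled rests on the absence of CD24 and TCRβ; the labels name no positive T-cell marker and no exclusion of other lineages.

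Myeloid cells and mast cells arise from bone marrow or fetal liver progenitors that the transcription factors PU.1, the C/EBP family and, for mast cells, GATA2 direct away from the lymphoid lineages. Lyz2 encodes the lysozyme of macrophages and granulocytes, and S100a8 a calcium-binding protein that pairs with S100a9 in neutrophils and monocytes. Csf1r is the receptor for the macrophage growth factor CSF1, Fcgr3 (CD16) binds the Fc part of antibodies on myeloid and natural killer (NK) cells, and Cd14 presents lipopolysaccharide to the receptor TLR4. Cebpb is a C/EBP transcription factor with broad expression. Cpa3 and Tpsb2 encode the carboxypeptidase and the tryptase of mast cell granules, and Cpa3 is also known from early blood progenitors. The thymus normally holds small numbers of macrophages, dendritic cells and mast cells, and the earliest thymic progenitors keep some myeloid potential.

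Upstream sequences of 4 members are shown because these genes took different courses over the 5 groups: Lyz2 was higher in all 3 mutant groups, S100a8 in the Bcl11b mutants, and Cpa3 in the Tcf7 mutant, while Fcgr3 is shared with NK cells. Each is the 250 bases before the RefSeq transcription start on GRCm38.p6, written 5′ to 3′ on the gene's strand. The 3 motifs below were searched on both strands with no overlap between their matches: a C/EBP core, TTGCNNAA, the PU.1 box, GAGGAA, and a GATA motif, AGATAA. Capitals mark the matches, which appear as the reverse complement where they lie on the other strand.
Lyz2 (chr10:117282273-117282522, minus strand): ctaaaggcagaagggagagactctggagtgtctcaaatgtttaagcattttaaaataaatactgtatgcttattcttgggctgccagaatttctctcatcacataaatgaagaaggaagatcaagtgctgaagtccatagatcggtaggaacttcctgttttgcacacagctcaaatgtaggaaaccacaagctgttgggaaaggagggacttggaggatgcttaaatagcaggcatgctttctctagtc
S100a8 (chr3:90668821-90669070, plus strand): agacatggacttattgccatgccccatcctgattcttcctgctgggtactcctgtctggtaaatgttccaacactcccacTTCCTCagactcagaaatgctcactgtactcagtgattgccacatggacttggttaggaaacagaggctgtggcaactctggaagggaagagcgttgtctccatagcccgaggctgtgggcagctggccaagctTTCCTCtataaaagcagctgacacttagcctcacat
Fcgr3 (chr1:171059404-171059653, minus strand): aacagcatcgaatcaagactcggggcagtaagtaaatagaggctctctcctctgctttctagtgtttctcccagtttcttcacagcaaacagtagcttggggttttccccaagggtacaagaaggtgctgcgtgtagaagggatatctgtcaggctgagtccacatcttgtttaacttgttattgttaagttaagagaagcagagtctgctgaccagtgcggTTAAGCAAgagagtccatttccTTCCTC
Cpa3 (chr3:20242182-20242431, minus strand): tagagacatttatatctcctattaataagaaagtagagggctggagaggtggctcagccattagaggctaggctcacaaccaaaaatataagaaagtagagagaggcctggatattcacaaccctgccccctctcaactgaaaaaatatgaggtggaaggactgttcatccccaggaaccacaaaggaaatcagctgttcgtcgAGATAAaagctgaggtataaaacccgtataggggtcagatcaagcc
S100a8 had 2 PU.1 boxes, 170 and 36 bases before the start, counted to the first base of the match. Fcgr3 has 2 RefSeq starts in the table. Its C/EBP core and PU.1 box lay 28 and 6 bases before the start of the window shown, and 37 and 15 bases before the other start. Cpa3 had a GATA motif at 46 bases. Lyz2 had none of these letters in its window, nor did Cebpb, whose window is not shown. Of 32817 RefSeq windows of the same length, 9.57% held the C/EBP core, 23.3% the PU.1 box and 9.99% the GATA motif. A match is a description of the letters only. The promoter table matched 5 of the 8 members; Csf1r, Cd14 and Tpsb2 were not matched.

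Total counts ran from 999381 to 1842717 per library, with 17544 to 20480 genes seen. Levels are CPM, the reads of a gene as a share of the library total over tested genes after TMM scaling. The intervals and floors cover counting error only, not the spread between libraries. No molecular identifiers were used to collapse PCR copies, and any copies left in the counts are not covered either. The Tcf7 +/+ pair differed more (SD of the log2 difference 0.496) than the other replicate pairs (0.354 to 0.411), and its first library had the higher level of Lyz2, Csf1r, Fcgr3 and Cd14. Sex also moved in part with genotype at postnatal day 7. Both Tcf7 +/+ libraries and Tcf7 F/F : Vav1-Cre replicate 2 had 585 to 748 Y-linked reads, while replicates 1 and 3 had 26 and 36, with 2091 and 2623 reads of Xist. The day 0 libraries all held reads of both kinds. Bcl11b fell from 573.5 ± 96.0 (SD, n = 2) to 205.1 ± 28.1 CPM in +/N440K and 177.6 ± 36.8 in D/N440K. Tcf7 counts over all exons stood at 572.9 ± 29.2 CPM in Tcf7 +/+ and 733.1 ± 100.0 in Tcf7 F/F : Vav1-Cre (n = 3), and so do not show the deletion. Cd3d, a chain of the T-cell receptor complex, went from 413 summed counts in Tcf7 +/+ to 7 in Tcf7 F/F : Vav1-Cre, so that this T-cell marker is near 0 in those libraries. In bulk RNA, more cells of a type and more RNA per cell cannot be told apart. Only the 2 tables' own groups were tested against each other, since the tables differ in age and were deposited separately.

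In Bcl11b +/N440K against +/+, 2 of 5 tested members rose and none fell (edgeR quasi-likelihood, adjusted p under 0.05 over all genes), against 4.79% of all 10910 tested genes called higher, 5.3% called lower and 10.1% called in either direction. In D/N440K against +/+, 4 of 5 rose, against 6.1% of all tested genes called higher, 6.31% lower and 12.4% in either direction. In D/N440K against +/N440K none of 5 was called by edgeR, 2 had an unadjusted p under 0.05, DESeq2 and limma-voom called 0, and 0.532% of all genes were called (0.284% higher, 0.247% lower). In Tcf7 F/F : Vav1-Cre against Tcf7 +/+, 7 of 8 rose, against 12% of 12366 genes called higher, 11.1% lower and 23.2% in either direction. Cd14, Cpa3 and Tpsb2 had too few reads to be tested at day 0. Cd14, Cpa3 and Tpsb2 passed the filter at day 7 only through the Tcf7 F/F : Vav1-Cre libraries. S100a8 passed it at day 0 only through the libraries of the 2 mutant groups. For these members the filter favoured a higher call in the mutants, and the counts of risers above include them. The same can hold for companion genes that had few reads in one group. The comparisons with Bcl11b +/+ share its 2 libraries. Groups did not overlap for 4 of 5 tested members in each comparison with Bcl11b +/+ (47.8% and 51% of all tested genes, 24% and 25.3% with the mutant higher), for 3 of 5 in D/N440K against +/N440K (35.4%, 17.8% higher) and for 6 of 8 at day 7 (48.8%, 24.7% higher). In each of these members the group named first was the higher. With the sex of the library as a term at day 7, chosen after seeing the data, 4 members were called in place of 7: Cd14 (1.68, edgeR adjusted p = 0.105), Fcgr3 (0.99, edgeR adjusted p = 0.06451) and Cpa3 were lost. In the 3 libraries with 585 to 748 Y-linked reads, 1 of them mutant, the log2 fold change was 0.96 for Lyz2 and 1.16 for Csf1r.

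**Figure D1:**
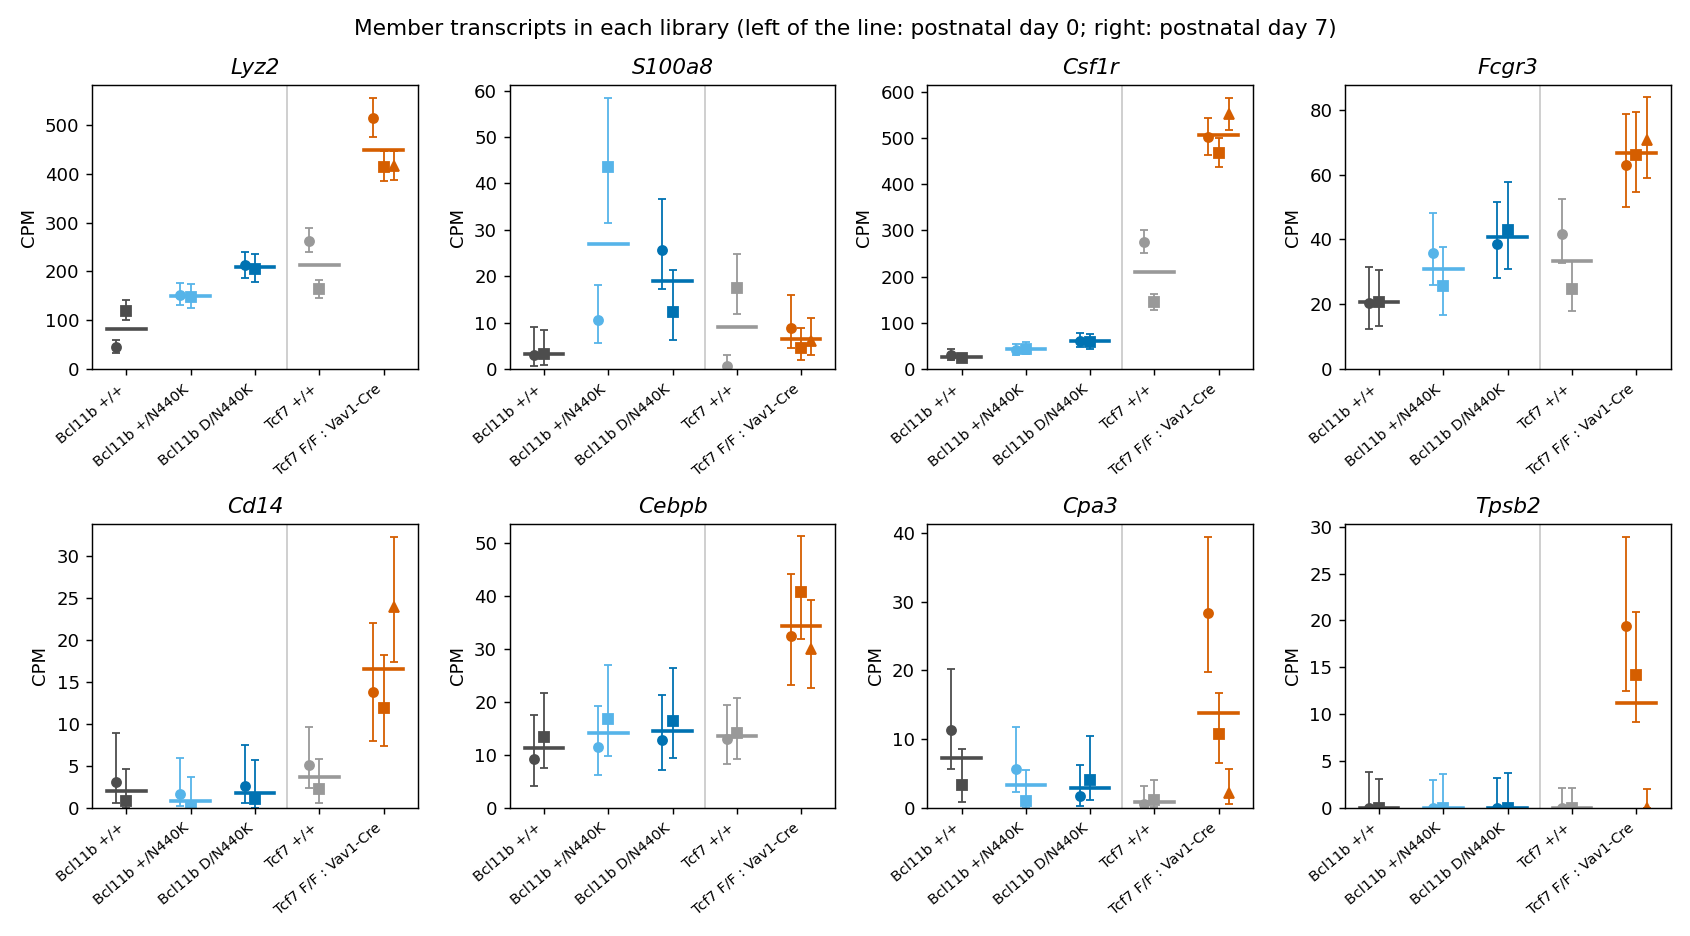
CPM of the 8 members in each of the 11 libraries. Circles, squares and triangles are replicates 1, 2 and 3, vertical bars are exact 95% Poisson intervals of the count, and horizontal lines are group means. Lyz2, Csf1r, Fcgr3 and Cebpb are higher in each Tcf7 F/F : Vav1-Cre library than in either Tcf7 +/+ library, and Tpsb2 is at 0 in 9 of the 11 libraries.

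Lyz2 (ENSMUSG00000069516, GRCm38 chromosome 10, 117277331 to 117282321, minus strand) was the member with the most reads at day 0. The Bcl11b +/+ libraries held it at 45.0 and 119.6 CPM, the +/N440K pair at 152.6 and 148.1, and the D/N440K pair at 212.4 and 205.6. The mutant groups lay above +/+ without overlap, and the +/+ pair itself was split, with 44 reads (95% interval 32.7 to 60.4 CPM) against 144 reads (100.8 to 140.8 CPM). Lyz2 rose in +/N440K by 0.81 ± 0.187 (log2 fold change ± SE, edgeR adjusted p = 0.002165), a call that was lost without the low library, +/+ replicate 1 (0.33, edgeR adjusted p = 0.2749), and that DESeq2 did not make (0.86, adjusted p = 0.7719). Lyz2 rose in D/N440K by 1.29 ± 0.177 (edgeR adjusted p = 6.068e-07). That rise was called without +/+ replicate 1 (0.81, edgeR adjusted p = 3.479e-05) and without replicate 2 (2.21), but not with DESeq2 (1.34, DESeq2 adjusted p = 0.1727). D/N440K stood above +/N440K in both libraries, by 0.47 ± 0.158 (edgeR adjusted p = 0.2315). This difference passed the test when only these 4 libraries were fitted (edgeR adjusted p = 0.03612), without a filter on low counts (edgeR adjusted p = 0.02729), and when either +/+ library was left out (edgeR adjusted p = 0.02587 and 0.0244).

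At day 7 the Tcf7 +/+ pair had 263.1 and 163.5 CPM of Lyz2, and the Tcf7 F/F : Vav1-Cre libraries 514.3, 414.7 and 415.6. All 3 mutant libraries lay above both controls, with a rise of 1.07 ± 0.173 (edgeR adjusted p = 2.082e-04). Without +/+ replicate 1 or 2 the log2 fold change was 1.45 or 0.76, and both were past the test. Lyz1, the neighbouring lysozyme gene of Paneth cells, shared 15.4% of the 50-base windows of the Lyz2 transcripts. It had at most 9 reads in any library.

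S100a8 (ENSMUSG00000056054, chromosome 3, 90668978 to 90670035, plus strand) was low in every +/+ library at day 0 and uneven between replicates elsewhere. The Bcl11b +/+ pair had 3 and 4 reads (3.07 and 3.32 CPM), the +/N440K pair 13 and 44 (10.6 and 43.4 CPM), and the D/N440K pair 30 and 12 (25.7 and 12.2 CPM). The mutant libraries lay above both controls, while the replicates of each mutant group differed by more than their genotypes did. S100a8 rose by 2.96 ± 0.594 in +/N440K (edgeR adjusted p = 3.467e-04) and by 2.56 ± 0.636 in D/N440K (edgeR adjusted p = 0.003224). The first call was lost without +/N440K replicate 2 (1.69, edgeR adjusted p = 0.1456) and the second without D/N440K replicate 1 (1.89, edgeR adjusted p = 0.134). DESeq2 called neither (DESeq2 adjusted p = 0.09067 and 0.2035). S100a9, the partner gene of S100a8, had 0 reads in all 6 day 0 libraries, which allows up to 0.457 CPM over the 6 together.

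At day 7 the Tcf7 +/+ pair had 1 and 31 reads of S100a8, and the Tcf7 F/F : Vav1-Cre libraries 11, 8 and 11. The mutant libraries fell between the 2 controls, and the log2 fold change was -0.51 ± 0.682 (edgeR adjusted p = 0.6372). Its sign depended on the control kept: without +/+ replicate 1 it was -1.46 (edgeR adjusted p = 0.006802), and without replicate 2 it was 3.32 (edgeR adjusted p = 0.02987). Of the 8 reads of S100a9 at day 7, 6 were in Tcf7 +/+ replicate 2, the library that was also high in S100a8.

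Csf1r (ENSMUSG00000024621) was second to Lyz2 per kilobase of exon at day 7 and lower in that order at day 0. The Bcl11b +/+ pair stood at 30.7 and 23.2 CPM, the +/N440K pair at 40.8 and 44.4, and the D/N440K pair at 61.7 and 58.0, so the 3 groups did not overlap. The rise in D/N440K was 1.17 ± 0.225 (edgeR adjusted p = 1.648e-04), also called by DESeq2 (1.16, DESeq2 adjusted p = 0.02842), the only member DESeq2 called in that comparison. In +/N440K the log2 fold change was 0.67 ± 0.24 (edgeR adjusted p = 0.06853), and D/N440K against +/N440K gave 0.50 ± 0.202 (edgeR adjusted p = 0.4571). At day 7 the Tcf7 +/+ pair had 275.5 and 144.3 CPM, and the Tcf7 F/F : Vav1-Cre libraries 502.2, 467.8 and 550.8. Every mutant library was above both controls, with a rise of 1.27 ± 0.194 (edgeR adjusted p = 1.196e-04), 1.82 without +/+ replicate 1 and 0.88 without replicate 2, both past the test. Exons of Csf1r overlap those of Hmgxb3 on the other strand, which hold 14.3% of its 50-base windows, and the strand of counting is not given in the sources used here.

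Fcgr3 (ENSMUSG00000059498, chromosome 1, 171051174 to 171064935, minus strand) moved in the same direction as Csf1r at both ages. The Bcl11b +/+ pair had 20.5 and 20.8 CPM, the +/N440K pair 35.9 and 25.7, and the D/N440K pair 38.5 and 42.8. Both mutant groups lay above the controls. Fcgr3 rose in D/N440K by 0.97 ± 0.267 (edgeR adjusted p = 0.009436). It missed the threshold when +/+ replicate 2 (0.98, edgeR adjusted p = 0.06131) or D/N440K replicate 2 (0.90, edgeR adjusted p = 0.06922) was left out, and DESeq2 gave an adjusted p of 0.2497. In +/N440K the log2 fold change was 0.59 ± 0.279 (edgeR adjusted p = 0.2077). At day 7 the Tcf7 +/+ pair had 41.7 and 24.8 CPM, and the Tcf7 F/F : Vav1-Cre libraries 63.1, 66.1 and 70.7. The groups did not overlap and the rise was 1.00 ± 0.226 (edgeR adjusted p = 0.003591). Fcgr3 shared 9.58% of its 50-base windows with Fcgr2b, the inhibitory receptor, which itself rose at day 7 by 1.49 ± 0.191 (edgeR adjusted p = 1.975e-05).

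Cd14 (ENSMUSG00000051439) was near the limit of detection at day 0, with 3 and 1 reads in the Bcl11b +/+ pair, 2 and 0 in the +/N440K pair, and 3 and 1 in the D/N440K pair. The ratio of summed counts was 1.01 in D/N440K over +/+ (exact 95% interval 0.189 to 5.45). Fitted without a filter, Cd14 stood at -0.95 in +/N440K and 0.02 in D/N440K against +/+, and at 0.97 between the mutants, none past the test (edgeR adjusted p = 0.8422, 1 and 0.9491). At day 7 the gene had 9 and 4 reads in Tcf7 +/+ (5.07 and 2.26 CPM) and 17, 21 and 43 reads in Tcf7 F/F : Vav1-Cre (13.8, 11.9 and 23.9 CPM). All mutant libraries lay above both controls, the third highest, and Cd14 rose by 2.17 ± 0.469 (edgeR adjusted p = 0.002457). Leaving out a control gave 2.86 or 1.71, both past the test.

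Cebpb (ENSMUSG00000056501, chromosome 2, 167688915 to 167690418, plus strand) was called at day 7 only; the ages were not compared by a test. At day 0 the Bcl11b +/+ pair had 9.21 and 13.3 CPM, the +/N440K pair 11.4 and 16.8, and the D/N440K pair 12.8 and 16.3, and all 3 groups overlapped. Its log2 fold changes of 0.28 ± 0.404 and 0.33 ± 0.404 did not pass the test (edgeR adjusted p = 0.7935 and 0.7085). At day 7 it stood at 12.96 and 14.09 CPM in Tcf7 +/+ and at 32.4, 40.7 and 30.0 in Tcf7 F/F : Vav1-Cre. The groups were apart by more than either spread, with a rise of 1.34 ± 0.267 (edgeR adjusted p = 0.001282). Tmem189 overlaps it on the other strand and holds 18.1% of its 50-base windows.

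**Figure D2:**
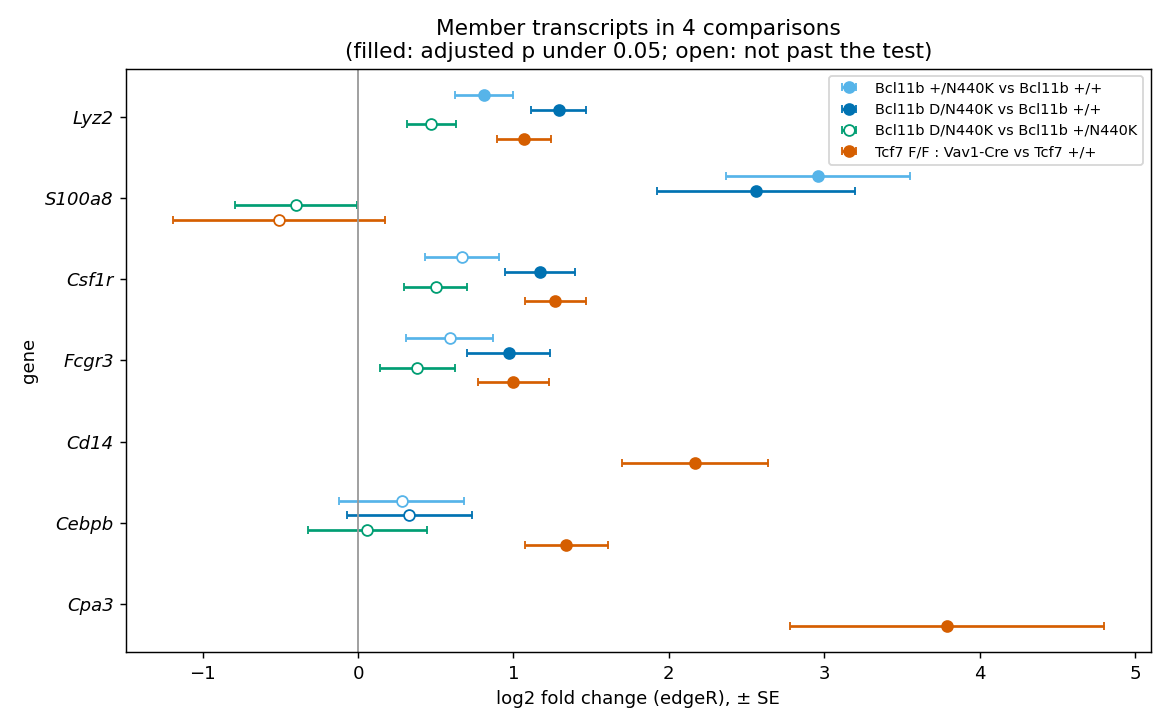
Log2 fold change (x axis, ± SE) of the tested members in the 4 comparisons, with filled points past the test at adjusted p under 0.05 and open points not past it. Lyz2 is filled in 3 comparisons, from 0.81 to 1.29, whereas S100a8 is filled in the comparisons with Bcl11b +/+ alone; Tpsb2 is left out, since its control group had 0 reads.

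The mast cell proteases were found mainly in 2 of the 3 Tcf7 F/F : Vav1-Cre libraries. Cpa3 (ENSMUSG00000001865, chromosome 3, 20215620 to 20242181, minus strand) had 1 and 2 reads in the Tcf7 +/+ pair and 35, 19 and 4 reads in the mutant libraries. The first mutant library was high, the second intermediate and the third close to the controls (28.3, 10.7 and 2.22 CPM against 0.564 and 1.13). Cpa3 rose by 3.79 ± 1.01 (edgeR adjusted p = 0.009271), and the ratio of summed counts was 14.3 (exact 95% interval 4.65 to 71.3). The call was lost without a filter on low counts (edgeR adjusted p = 0.1276), with limma-voom (adjusted p = 0.1078) and with the sex of the library as a term (edgeR adjusted p = 0.08801). Without mutant replicate 1 or replicate 2 the gene no longer passed the filter and could not be tested.

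Tpsb2 (ENSMUSG00000033825, chromosome 17, 25366305 to 25369098, plus strand) had 24 and 25 reads in Tcf7 F/F : Vav1-Cre replicates 1 and 2 and 0 in replicate 3. It also had 0 in both Tcf7 +/+ libraries and in all 6 day 0 libraries. The groups therefore overlapped at 0. Over the groups the summed level was at least 12.1-fold higher in Tcf7 F/F : Vav1-Cre, taking a floor of 3 counts over the 2 controls (edgeR adjusted p = 0.01086). The call was lost without a filter (edgeR adjusted p = 0.1654), under DESeq2 (adjusted p = 0.3193) and with limma-voom (limma adjusted p = 0.1509), and without mutant replicate 1 or 2 the gene was not tested. Its transcripts shared no 50-base window with another gene, its close relative Tpsab1 included.

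At day 0 Cpa3 was seen in every library, with 11 and 4 reads in the Bcl11b +/+ pair, 7 and 1 in the +/N440K pair, and 2 and 4 in the D/N440K pair. The groups overlapped. The ratio of summed counts was 0.52 in +/N440K (exact 95% interval 0.191 to 1.31) and 0.406 in D/N440K (0.129 to 1.11). Fitted without a filter, neither passed the test (edgeR adjusted p = 0.7016 and 0.4069). Tpsb2 was at 0 in each of these libraries.

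Other granule genes of mast cells and basophils were also split between the mutant libraries at day 7. Cma1, a mast cell chymase, had 4 and 2 reads in the Tcf7 +/+ pair and 16, 19 and 0 in the mutant libraries, the same 2 libraries as Tpsb2. Mcpt4, another chymase, had 21 reads in mutant replicate 1 and 0 in the other 4 libraries. The basophil proteases went with replicate 2 instead: Prss34 had 33 reads there and 0 elsewhere, and Mcpt8 had 45 reads there against 4 and 11 in the other mutants and 3 and 6 in the controls. Tpsab1 had 2, 2 and 0 reads in the mutant libraries and 0 in the controls. Genes shared by mast cells, basophils and progenitors were seen in both controls and in all 3 mutant libraries, Gata2 unevenly among the mutants (22.6, 31.1 and 60.1 CPM). Kit, the receptor for stem cell factor, had 404, 617 and 658 reads against 101 and 109, a rise of 2.55 ± 0.147 (edgeR adjusted p = 2.031e-09). Gata2 and Hdc, which makes histamine, rose by 1.32 ± 0.363 and 1.26 ± 0.304 and were highest in replicate 3 (108 and 86 reads), the library without Tpsb2. Il1rl1, the receptor for IL-33, rose by 1.34 ± 0.242. Not all genes of the list rose. Slc18a2 had 42.26 and 42.27 CPM in the controls and 32.35, 38.42 and 28.93 in the mutants. Hpgds had 41.7 and 27.05 CPM against 45.28, 22.04 and 34.49, and neither gene was called. Fcer1a and Ms4a2, chains of the high-affinity IgE receptor that define mature mast cells and basophils, had at most 4 and 11 reads in any library. Of the 16 genes of the mast cell and basophil list, 10 were tested at day 7, 6 rose and 4 were not past the test (median 1.29, against -0.01 over all tested genes). At day 0, 4 were tested and none was called in any of the 3 comparisons by edgeR; Il1rl1, at -0.97 ± 0.356 in D/N440K against +/+ (edgeR adjusted p = 0.06895), was the only one with an unadjusted p under 0.05.

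**Figure D3:**
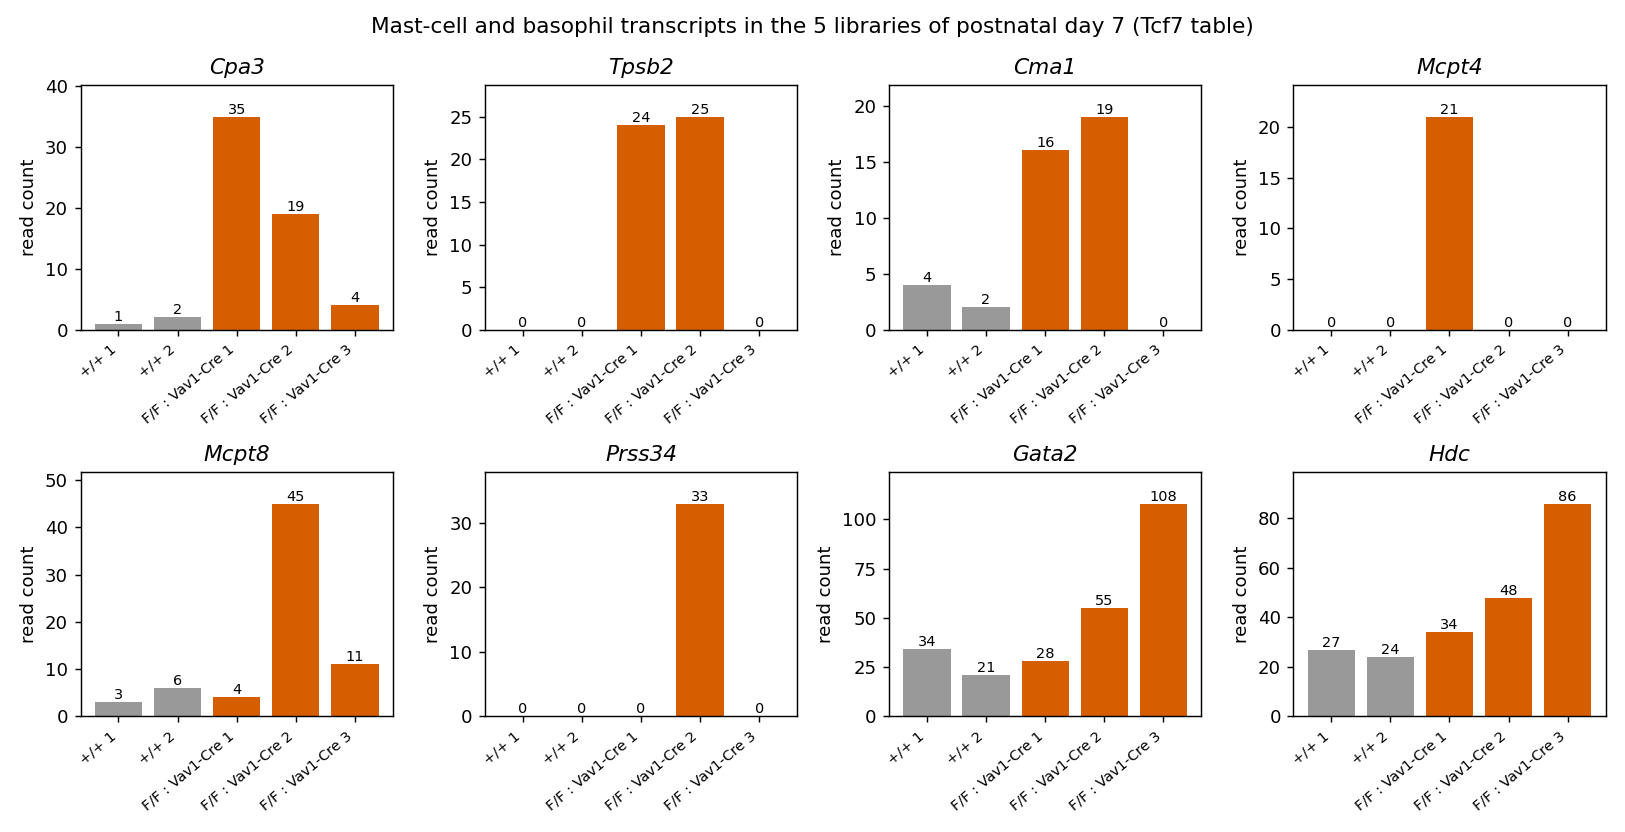
Read counts of 8 mast cell and basophil genes in each of the 5 libraries at postnatal day 7, with the count printed on each bar and the axis starting at 0. Tpsb2 and Cma1 are seen in mutant replicates 1 and 2, Mcpt4 in replicate 1, Prss34 in replicate 2, and Gata2 and Hdc are highest in replicate 3.

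Per kilobase of exon, Lyz2 was first in all 5 groups and the order of the other members varied. In Bcl11b +/+ Lyz2 was highest at 62.5 CPM per kilobase, followed by Fcgr3 at 11.9, Cebpb at 7.48, Cpa3 at 4.80, Csf1r at 4.67, S100a8 at 4.60 and Cd14 at 1.13. Cpa3, Csf1r and S100a8 did not differ beyond their spread. S100a8 came second in both mutant groups. In +/N440K the levels were 114.2 for Lyz2, 38.9 for S100a8, 17.7 for Fcgr3, 9.38 for Cebpb, 7.38 for Csf1r, 2.21 for Cpa3 and 0.471 for Cd14. In D/N440K they were 158.8 for Lyz2, 27.3 for S100a8, 23.4 for Fcgr3, 10.4 for Csf1r, 9.69 for Cebpb, 1.91 for Cpa3 and 1.04 for Cd14. The replicates of S100a8 spread across the level of Fcgr3 in each of these groups. In Tcf7 +/+ Lyz2 was again first at 162.1, with Csf1r at 36.4, Fcgr3 at 19.2, S100a8 at 12.99, Cebpb at 8.99, Cd14 at 2.12 and Cpa3 at 0.557. The place of S100a8 there rests on replicate 2, which had 17.5 CPM against 0.564 in replicate 1. In Tcf7 F/F : Vav1-Cre the order was Lyz2 at 340.6, Csf1r at 87.8, Fcgr3 at 38.4, Cebpb at 22.8, Cd14 at 9.53, S100a8 at 9.38, Cpa3 at 9.07 and Tpsb2 at 7.01, where the last 4 overlapped.

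The companion genes of each member were read from 13 lists of marker and pathway genes. Of the granulocyte list, 2 of 16 genes were tested at day 0 and none was called in any comparison: Csf3r, the receptor for G-CSF, was at 0.85 ± 0.352 in D/N440K (edgeR adjusted p = 0.116). Ngp, Camp, Ltf, Lcn2, Elane and Retnlg, genes of granulocyte granules, had 0 to 2 reads in each day 0 library. Mpo, the myeloperoxidase of granulocytes and their progenitors and the other tested gene of the list, was seen in all of them, with 23 and 13 reads in the Bcl11b +/+ pair, 10 and 17 in the +/N440K pair, and 2 and 22 in the D/N440K pair. The groups overlapped, and its log2 fold changes of -0.45 ± 0.502 and -0.56 ± 0.516 against +/+ did not pass the test (edgeR adjusted p = 0.7067 and 0.601). Among the untested genes of the list, Mmp8 had 0 and 1 reads in the Bcl11b +/+ pair, 3 and 4 in the +/N440K pair, and 5 and 3 in the D/N440K pair. Mmp9 went the other way, with 5 and 7, 0 and 0, and 1 and 0 reads. At day 7, 3 of 16 were tested and all 3 rose: Csf3r by 2.26 ± 0.308, Mmp9, a gelatinase, from 2 to 56 summed counts, and Itgam (CD11b) by 1.19 ± 0.278. The summed level of that list was 30.4 to 49.6 CPM in Tcf7 +/+ and 122.1 to 162.5 in Tcf7 F/F : Vav1-Cre. Ngp, Camp, Ltf, Lcn2, Elane, Retnlg and Mpo had 0 to 3 reads in each day 7 library. Mmp8, again not tested, had 2 and 3 reads in the Tcf7 +/+ pair and 0, 4 and 8 in the mutant libraries. The part of granulocytes in the rise of Lyz2 was not tested.

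Of the monocyte and macrophage list, 11 of 26 genes were tested at day 0. In +/N440K 4 rose and none fell (median 0.15, all genes 0), and in D/N440K 7 rose and none fell (median 0.66, all genes 0). Summed over the list, the level was 733.5 to 782.9 CPM in Bcl11b +/+, 1026 to 1096 in +/N440K and 1234 to 1297 in D/N440K. Cx3cr1, the fractalkine receptor, rose by 0.89 ± 0.118 and 1.21 ± 0.115, Ccr2 by 0.65 ± 0.15 and 0.96 ± 0.145, and Lgals3 by 0.72 ± 0.109 and 0.74 ± 0.109 in +/N440K and D/N440K; NK cells and innate lymphocytes also use these genes. Ly6c2, a surface protein of inflammatory monocytes and some lymphocytes, rose by 0.74 ± 0.205 and 1.07 ± 0.197. Called in D/N440K but not in +/N440K were Spi1 (1.14 ± 0.328), Ctss, a protease of antigen-presenting cells (0.66 ± 0.196), and Sirpa, an inhibitory receptor of myeloid cells (0.45 ± 0.147). Their log2 fold changes in +/N440K were 0.06, 0.15 and -0.01, and none of the 3 was past the test between the mutants. Of the 26 genes 4 were at 0 in all 6 libraries, namely C1qa, Vsig4, Timd4 and Marco. Mertk, Cd163, Ms4a7, Lyz1, C1qc and Mrc1 had 0 to 2 reads in each library. Other macrophage genes had more reads in some libraries. C1qb had 0 and 1 in the Bcl11b +/+ pair, 6 and 0 in the +/N440K pair, and 2 and 4 in the D/N440K pair. Adgre1 (F4/80) had 2 to 9 in each library. Cd68, a lysosomal protein of macrophages, had 11 to 24 reads in each, and its log2 fold changes of -0.25 ± 0.402 and -0.14 ± 0.399 were not past the test. The NK and ILC1 list moved with the members: 10 of its 12 genes rose in +/N440K and 11 in D/N440K, and its summed level was 2986 to 3060 CPM in Bcl11b +/+, 4261 to 4461 in +/N440K and 4602 to 4733 in D/N440K. The part of NK cells in the rise of Fcgr3, Lyz2 and Csf1r was not tested.

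At day 7 macrophage genes were detected, and most were not past the test. Among 22 tested genes 6 were higher and 1 lower (median 0.16). The risers included Csf2ra, the GM-CSF receptor (1.21 ± 0.207), and Spi1, which encodes PU.1 (1.08 ± 0.203). Mrc1, the mannose receptor of resident macrophages, was lower, at -1.56 ± 0.261 (edgeR adjusted p = 2.754e-04). C1qa, C1qb and C1qc, which encode the complement subunits made by macrophages, stood at -0.27, -0.31 and -0.63 and Adgre1 at 0.61 ± 0.231, none past the test. The summed level of the list was 1796 to 2419 CPM in Tcf7 +/+ and 2514 to 2685 in Tcf7 F/F : Vav1-Cre. Of the NK and ILC1 list 6 of 12 genes were lower and 1 higher at day 7, with a summed level of 2385 to 2699 CPM in the controls and 2272 to 2536 in the mutants. Dendritic and MHC II genes ranged from 2513 to 3536 and from 3389 to 3788 CPM, and 7 of 14 tested rose, Batf3 by 2.67 ± 0.27. The lists of other cells moved as follows at day 7: T lineage 1 of 12 higher and 7 lower, B lineage 0 of 7 higher and 6 lower, erythroid 0 of 2 called, stroma and epithelium 2 of 4 higher. At day 0, in +/N440K and D/N440K, 9 and 8 of 12 T lineage genes were lower and none higher, 1 of 12 dendritic and MHC II genes was higher and 2 lower in each, and 1 of 3 stroma and epithelium genes was lower in each. The 1 tested B lineage gene was lower in D/N440K. Of 5 tested erythroid genes 1 was higher in +/N440K (median -0.84) and 4 in D/N440K (median 1.58). The 1 was Car2, a carbonic anhydrase of many cell types, which went from a mean of 78.2 to 179.0 CPM in +/N440K and 236.4 in D/N440K. The globin gene Hbb-bs was at -1.38 ± 0.561 in +/N440K (edgeR adjusted p = 0.1222) and rose by 1.58 ± 0.36 in D/N440K. The summed level of the list was 121.7 to 126.2 CPM in Bcl11b +/+, 195.4 to 204.0 in +/N440K and 332.3 to 356.2 in D/N440K. Their part in the rise of the members was not tested.

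**Figure D4:**
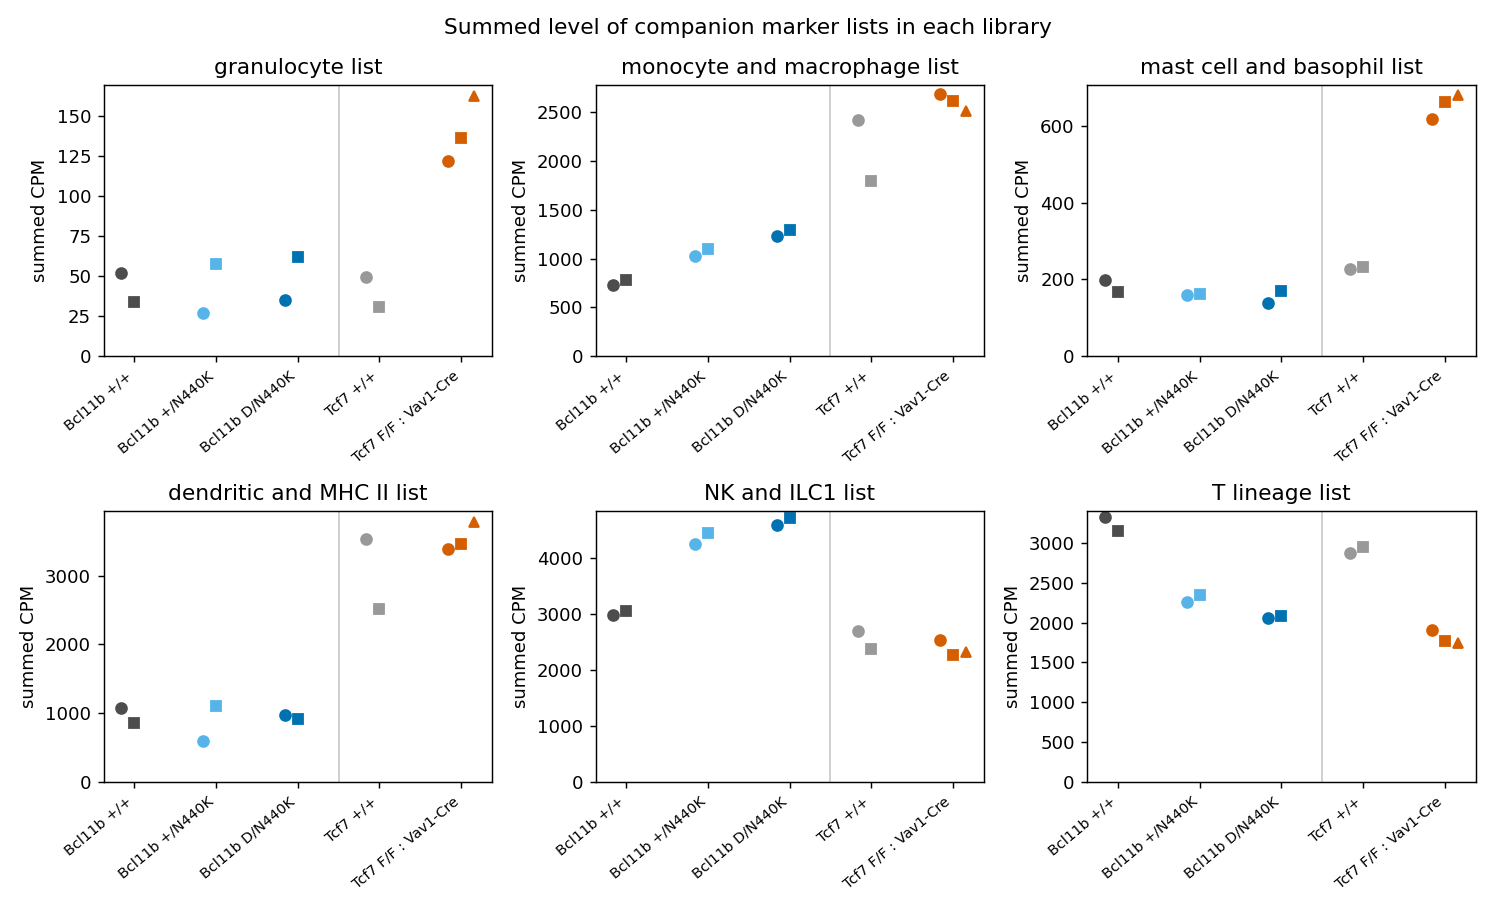
Summed CPM of 6 marker lists in each library, with circles, squares and triangles for replicates 1, 2 and 3 and each axis starting at 0. The mast cell and granulocyte lists are higher in all 3 Tcf7 F/F : Vav1-Cre libraries than in the controls, whereas the NK and ILC1 list is higher in the Bcl11b mutants. The monocyte and macrophage list is higher in each mutant library than in the controls of its age. In the Tcf7 F/F : Vav1-Cre libraries Kit alone gave 326.7 to 366.1 CPM of the mast cell sum (619.4 to 681.0 CPM). Csf3r gave 75.2 to 104 CPM of their granulocyte sum (122.1 to 162.5 CPM).

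Partners of the receptors moved unevenly. Csf1, the ligand of Csf1r, rose at day 7 from 18.0 ± 3.98 to 182.1 ± 17.7 CPM (3.33 ± 0.202, edgeR adjusted p = 3.02e-09) and had at most 3 reads in any day 0 library. Of the CSF1 receptor pathway list 2 of 7 rose and 1 fell at day 7, and Spi1 alone rose at day 0, by 1.14 ± 0.328 in D/N440K. Fcer1g, the signalling chain that Fcgr3 needs, rose by 0.61 ± 0.113 in +/N440K and 0.63 ± 0.113 in D/N440K and was at 0.52 ± 0.188 at day 7 (edgeR adjusted p = 0.05721). Of the Fc receptor and adaptor list, 3 of 5 rose and 1 fell in both day 0 comparisons with +/+, Cd247 being the one that fell, and Syk, the kinase of the pathway, was higher in D/N440K than in +/N440K (0.52 ± 0.116, edgeR adjusted p = 0.02099). At day 7, 2 of 7 rose and 1 fell. Tlr4, the receptor that CD14 serves, was at 0.44 ± 0.334 at day 7 (edgeR adjusted p = 0.3732), with 6 of 9 tested genes of its list higher, Tnf by 1.85 ± 0.2 and Nfkb1 by 0.66 ± 0.113. At day 0, 0 of 7 in +/N440K and 1 of 7 in D/N440K (Nfkb1, 0.28 ± 0.0879) were called. Of the C/EBP list Cebpa, a factor of early myeloid cells, rose at day 7 by 0.89 ± 0.267 (edgeR adjusted p = 0.0227) and the other 4 tested genes were not past the test. The 3 genes tested at day 0, Cebpg, Cebpz and Ddit3, were not called. Cebpa was not tested at day 0, with 5, 17 and 10 summed reads in Bcl11b +/+, +/N440K and D/N440K.

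The genes whose course over the 11 libraries was closest to each member, by the root mean square difference of log2 CPM centred within each table, were taken 3 to a member. They were Plpp2, Pck2 and Gm19154 for Lyz2 (0.239 to 0.247), Fes, a kinase of myeloid cells, with Olfm1 and Plod1 for Csf1r (0.151 to 0.168), and Plcg2, Zc3h12a and Slc2a6 for Fcgr3 (0.103 to 0.148). Those of Cebpb were Jag1, Acsl1 and Irgm2 (0.125 to 0.175), and those of S100a8, at a larger distance, Klhl30, Npnt and Gm1966 (0.737 to 0.778). The 10531 genes tested in both tables were searched.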

How the data were processed

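RNA of sorted thymocytes was sequenced in 11 libraries. The submitters' processing notes name fastp 0.20.0, STAR 2.7.3a, SAMtools 1.9, Picard 2.21.1, HTSeq 0.11.2 and edgeR and the build GRCm38, with no role or order. The annotation, the strand of counting and any removal of duplicate reads are not given in the sources used here. Gene names and coordinates were looked up by identifier in a GENCODE annotation of that build. The deposited count tables hold whole reads per gene, 1 table for the Bcl11b and 1 for the Tcf7 libraries. The authors' CPM tables list 10910 and 12366 of these genes. All listed CPM values (100%, tolerance 0.01) gave back whole reads, and the fits on them called 1101, 1353, 58 and 2863 genes, as the counts did.

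Each table was fitted separately with edgeR 4.0.16 (R 4.3.3): filterByExpr with a minimum count of 10, TMM, 1 coefficient per group, the quasi-likelihood test and Benjamini-Hochberg adjustment over all tested genes, two-sided, called under 0.05. Each table left 3 residual degrees of freedom. DESeq2 1.42.0, limma 3.58.1, other scalings, filters and pseudocounts, a replicate block and leaving out each library were tried. The steps were tested on simulated data. Totals of 999381 to 1842717 reads limit precision for genes with few reads. Members and 13 companion lists were chosen with earlier results of these data known. The genes named are the members, of each list the first gene and the 3 tested genes of smallest p in a comparison, and the 3 genes nearest to a member's course; any other gene was named after its values were seen.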

Additional observations from a re-analysis of the deposited data

How the results depend on the processing

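Of the alternatives run on the members' log2 fold changes, 349 kept direction and side of the threshold, 26 lost the call, 5 gained it and 7 reversed; where no cause is given, the cause was not tested. With DESeq2 the genes called were 357 (1101 with edgeR) in +/N440K and 528 (1353) in D/N440K against +/+, and 4 (58) between them; members called were 0 (2), 1 (4) and 0. Between D/N440K and +/N440K, no filter gave 91 genes and 1 member, and fitting only those groups gave 1 member, Lyz2 in each. At day 7 no filter gave 1606 genes (2863), and the sex term 1112 genes and 4 members (7). The libraries with 585 to 748 Y-linked reads left 1 mutant library, so calls are not counted there. Leaving out 1 library gave 726 to 1121 genes and 1 to 2 members in +/N440K, 924 to 1571 and 3 to 4 in D/N440K, 25 to 91 and 0 to 1 between them, and 1700 to 4612 and 5 to 8 at day 7; a lone sample is then assumed to vary like the other groups. Reversed values, none past the test but one, were Cebpb in D/N440K against +/N440K (-0.21 to 0.33 over the libraries left out; -0.21 without +/N440K replicate 1, -0.11 without D/N440K replicate 2), S100a8 there (-1.15 to 0.87; 0.87 without +/N440K replicate 2), and S100a8 at day 7 (0.72 with limma-voom, 0.44 and 0.78 with pseudocounts of 1 and 0.25 on the authors' CPM, and, over the libraries left out, -1.46 to 3.32, the latter past the test and without Tcf7 +/+ replicate 2). Same-numbered libraries did not deviate together (correlations of -0.033, -0.032 and 0.01 at day 0, -0.112 and 0.074 at day 7). Each day 0 group had 2 libraries, whose deviations mirror each other, so each pair of groups gave 1 value. These values show no pairing by number and cannot exclude one. With the replicate block 982, 1267, 37 and 1996 genes and 2, 4, 0 and 7 members were called.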
